A study of Mus musculus with 6 samples.

Results

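The genes Fabp7, Nes, Sox2, S100b, Gfap, Vim, Prom1, Pax6 and Olig2 are markers of neural progenitors and glia. These 9 genes were chosen by name, with earlier results of these data known. They are among 18193 genes with a probe set of their own and were read by 20 of the 45037 probe sets tested. RNA of naïve Large T BMSC was hybridized to 3 Affymetrix mouse genome arrays and RNA of iLarge T BMSC to 3 more. BMSC are bone marrow stromal cells that adhere to plastic. All of them, controls included, came from Immortomouse (H-2Kb-tsA58) mice, CBA/ca × C57Bl/10 hybrids in which the H-2Kb promoter drives a temperature-sensitive SV40 large T antigen, so that the cells keep dividing at 33 °C. Naïve cells stayed in culture and were frozen after 3 passages. iLarge T cells had been given into a vein of male C57Bl/6J mice, aged 6 to 8 weeks, at 24 h of reperfusion that followed 60 min of middle cerebral artery occlusion. At 14 days after injection the infarcted hemisphere was digested with collagenase, and the cells that grew out at 33 °C were passaged 3 times and frozen. An array held pooled RNA from 3 hemispheres or from 3 naïve preparations, so p-values measure the spread between pools. The time in the injured brain cannot be told apart from the digestion and the second outgrowth. The share of host cells in the recovered cultures was not measured here. The paper reports staining for Large T antigen in all the recovered cells. It saw no outgrowth at 33 °C from infarcted tissue of mice given wild-type BMSC or saline.

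Neural progenitors of the embryonic and adult brain share a small set of well-known markers. Sox2, Pax6 and Olig2 are transcription factors of progenitors and, for Olig2, of the oligodendrocyte lineage. Nestin (Nes), vimentin (Vim) and glial fibrillary acidic protein (Gfap) are intermediate filaments that radial glia and astrocytes use in different mixtures, and vimentin is also abundant in mesenchymal cells. Fabp7, the brain lipid-binding protein, marks radial glia, S100b is a calcium-binding protein of astrocytes and Schwann cells, and Prom1 (CD133) is a surface glycoprotein of several progenitor types. No one of these genes is made by neural cells alone.

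Values are MAS5 signals, an intensity per probe set on a linear scale. Median signals were between 308 and 450.1 on the 6 arrays. The 40th percentile of each array, a signal of 183 to 299.6, was taken as near background, because the table gives no detection calls. Log2 signals correlated at 0.829 to 0.892 among naïve arrays, at 0.845 to 0.863 among iLarge T arrays and at 0.789 to 0.824 between the groups, across probe sets that are not independent. A gene rose or fell where limma gave a Benjamini-Hochberg adjusted p under 0.05 over all probe sets and a change of at least 2-fold, and log2 fold changes are iLarge T minus naïve. iLarge T replicate 6 stood apart in markers of several cell types. All 12 measured endothelial markers and 10 of 14 microglial and blood cell markers had their highest iLarge T signal on it, against 29.2% of all genes. So did 8 of 11 pericyte, 9 of 13 oligodendrocyte lineage and 10 of 17 astrocyte markers. Of further neural stem cell and radial glia genes 5 of 22 did, and of neuronal markers 3 of 15. Results that rest on this array are given with and without it, and calls in the lists of other genes that were lost without it are named after them.

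Fabp7, Sox2, S100b and Nes rose in iLarge T BMSC, and none of the 9 genes fell. In bulk RNA, more cells that make a transcript and more transcript per cell cannot be told apart. These 4 are 44.4% of the genes described, while 3.54% of all genes rose and 3.26% fell. Gfap, Vim, Prom1, Pax6 and Olig2 did not pass the test. The median log2 fold change over the 9 genes was 2.54, against 0.06 over all genes. As the 9 genes were chosen with earlier results known, these contrasts describe the list and test nothing. Sox2, S100b, Prom1 and Olig2 lay under the 40th percentile on all naïve arrays. Of these, Sox2 and S100b were above it on all iLarge T arrays, a step that 1.32% of all genes made. Only Nes, Vim and Pax6 among the 9 were above it on all naïve arrays. With the 30th percentile instead, neither Sox2 nor S100b made this step. S100b was then above the mark on all naïve arrays and Sox2 on 1. The other S100b probe set was above the 40th percentile on naïve replicate 1. By probe set, 6 of 20 rose, against 2.47% of all. Without iLarge T replicate 6, 3 of the 9 genes were called (3.48% of all genes in either direction), since Sox2 (adjusted p = 0.0685) was lost. Leaving out iLarge T replicate 2 or 4 left 2 of the 9, Fabp7 and S100b, with 3.75% and 3.3% of all genes called. Leaving out naïve replicate 3 left 3, without Nes, with 3.03% of all genes called. The methods' t-test, which estimates the spread for each probe set alone, called none of the 9 after adjustment on either the log2 or the linear scale, with 4 and 3 of them at an unadjusted p under 0.05. It called 0.077% and 0.291% of all genes.

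**Figure D1:**
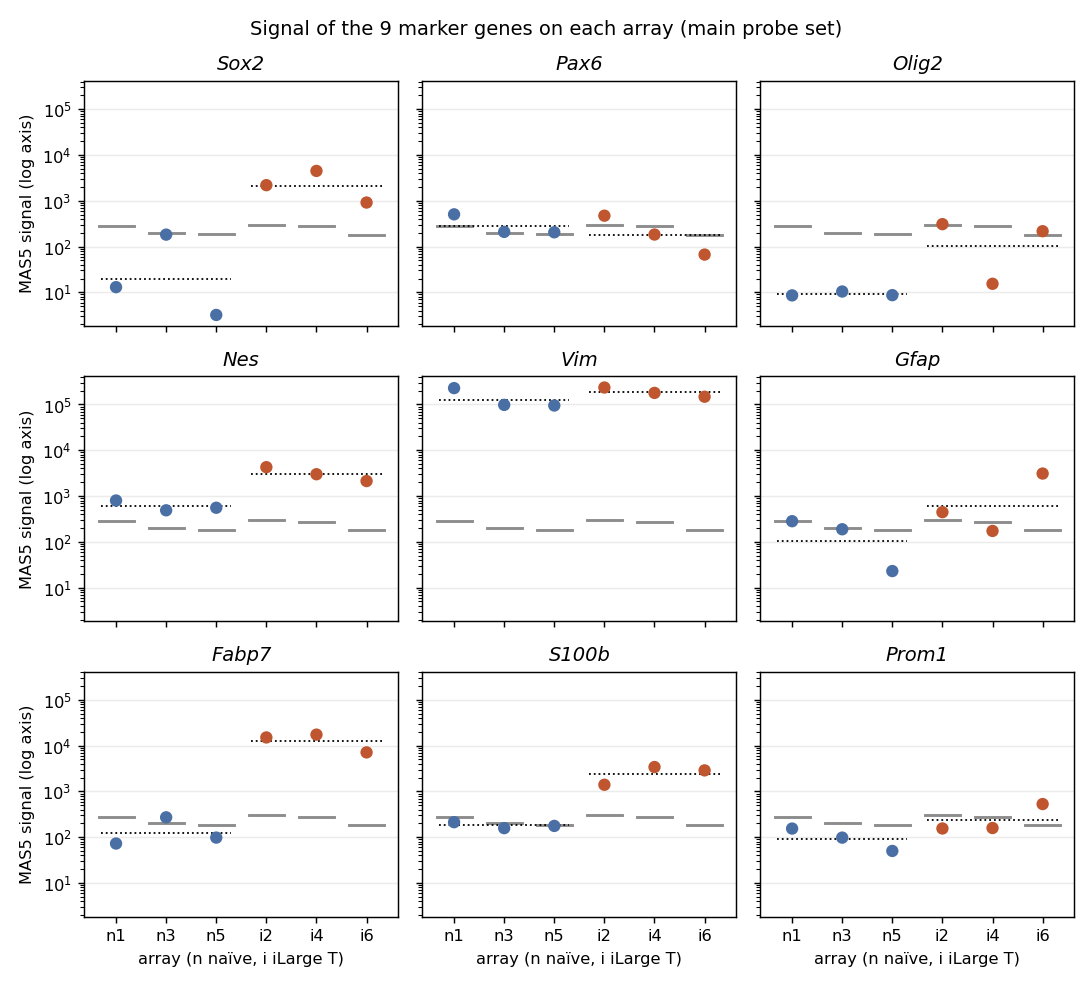
MAS5 signal on a log axis for the main probe set of each gene on naïve replicates 1, 3 and 5 (blue) and iLarge T replicates 2, 4 and 6 (orange). Grey bars are the 40th percentile of each array and dotted lines the mean of the log2 signals of a group. Fabp7, Sox2, S100b and Nes separate by group, Vim is near the top of the scale on all arrays, and Gfap is high only on iLarge T replicate 6.

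Among the transcription factors, Sox2 rose and the others did not pass. Sox2 (RefSeq, GRCm38.p6, chromosome 3, 34649995 to 34652461) holds the self-renewal program of neural stem cells. In naïve cells it read 12.99 (replicate 1), 182 (replicate 3) and 3.21 (replicate 5). In iLarge T cells it read 2187 (replicate 2), 4476 (replicate 4) and 912 (replicate 6), and the other genes below follow this order. The groups did not overlap, and the lowest iLarge T signal was 5.01 times the highest naïve signal. Because all naïve signals were near background, the change is given as at least 9.49-fold, taking the 40th percentile as the naïve level (adjusted p = 0.0238). The fitted log2 fold change of 6.72 ± 1.39 (SE) rests on naïve values that spread more widely on the log scale than those of the recovered cells. The call was lost without iLarge T replicate 2 (adjusted p = 0.103), 4 (0.131) or 6 (0.0685), while the bound stayed between 6.46-fold and 14.3-fold when any array was left out. Sox2 lies inside the long noncoding RNA gene Sox2ot (34560381 to 34677993).

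Pax6 (chromosome 2, 105668896 to 105698410), a regulator of cortical radial glia and the eye, gave no common direction over its 5 probe sets. On its brightest probe set the naïve signals were 504, 209 and 205 and the iLarge T signals 471, 183 and 66.7, a log2 fold change of -0.64 ± 0.93 (adjusted p = 0.803). The groups overlapped, and without iLarge T replicate 6 the sign turned, to 0.08. Another probe set read 22.2, 30.3 and 98.1 in naïve and 350, 244 and 257 in iLarge T cells, which did not overlap. Its log2 fold change of 2.79 ± 1.01 missed the threshold (adjusted p = 0.173), and its signals reached the 40th percentile on 2 arrays. The other probe sets gave log2 fold changes of 0.76, -1.39 and 1.57, with adjusted p of 0.848, 0.608 and 0.599. Pax6 overlaps the antisense transcript Pax6os1 and the gene Elp4 in the annotation.

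Olig2 (chromosome 16, 91225550 to 91228677), a helix-loop-helix factor of oligodendrocyte and motor neuron progenitors, was dim on every array. Its signals were 8.58, 10.4 and 8.69 in naïve and 308, 15.4 and 216 in iLarge T cells. The groups did not overlap, but iLarge T replicate 4 stayed near the naïve level. The log2 fold change was 3.45 ± 1.33 (adjusted p = 0.204), and signals above the 40th percentile were read on 2 iLarge T arrays, none of them above the median of its array.

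Of the intermediate filaments, nestin rose on all its probe sets with all 6 arrays in the fit, and vimentin and Gfap did not pass. Nes (chromosome 3, 87971093 to 87980451) was above the 40th percentile in both groups on its brightest probe set. Signals were 800, 489 and 556 in naïve and 4274, 2999 and 2129 in iLarge T cells. All iLarge T signals were higher, with means of 615 ± 164 and 3134 ± 1079 (SD, n = 3). The log2 fold change was 2.32 ± 0.40 (adjusted p = 0.0108), or 5.01-fold. This call was lost without iLarge T replicate 2 (adjusted p = 0.0566) or 4 (0.0591) and without naïve replicate 3 (0.0501). A second probe set read 2411, 92.4 and 50.3 against 7139, 5770 and 7371, with naïve replicate 1 well above the other naïve arrays (log2 fold change 4.91 ± 1.16, adjusted p = 0.0424). The last one read 43.1, 15.4 and 6.74 against 462, 669 and 952, at least 3.04-fold (adjusted p = 0.0198). Each of these additional probe sets stayed called in 1 of the 6 fits that left out an array, that without naïve replicate 1, with adjusted p up to 0.147 and 0.0920 in the others. The former was also lost under quantile normalization (adjusted p = 0.0523) and under a filter on dim probe sets (0.0529). In limma without an intensity trend all Nes probe sets were lost (adjusted p = 0.0865, 0.209 and 0.0564). The size of the nestin change thus differed between probe sets, from 2.32 to 5.34 on the log2 scale, while the direction was shared.

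Vimentin (chromosome 2, 13574311 to 13582826) ranked above 99.7% of probe sets on every array. Signals of the main probe set were 227394, 97933 and 94871 in naïve and 234266, 178694 and 147469 in iLarge T cells. The groups overlapped through naïve replicate 1. The log2 fold change was 0.52 ± 0.37 (adjusted p = 0.542), with a 95% interval of -0.30 to 1.33, and the other probe sets gave 0.68 and 0.81 (adjusted p = 0.379 and 0.218). Vimentin did not pass on any of its 3 probe sets. Leaving out naïve replicate 1 gave a log2 fold change of 0.93 (adjusted p = 0.0517) on the main probe set, under 2-fold, while the other probe sets then passed, at 1.06 (0.0342) and 1.16 (0.0116).

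Gfap (chromosome 11, 102887336 to 102897200), the filament of mature and reactive astrocytes, was bright on a single array. Its signals were 283, 189 and 23.1 in naïve and 446, 173 and 3104 in iLarge T cells. The high value was that of replicate 6, and replicate 4 lay below naïve replicates 1 and 3. The log2 fold change was 2.54 ± 1.26 (adjusted p = 0.341), with a 95% interval from -0.28 to 5.35. Without replicate 6 it was 1.38 ± 1.31 (adjusted p = 0.679). The other Gfap probe sets were also highest on replicate 6, at 447 and 617, and did not pass (adjusted p = 0.564 and 0.469).

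Fabp7 (chromosome 10, 57784923 to 57788450) had the smallest adjusted p of the 9 genes. Its signals were 72.9, 272 and 98.3 in naïve and 15091, 17375 and 7112 in iLarge T cells. The lowest iLarge T signal was 26.1 times the highest naïve one, and the group means were 148 ± 108 and 13193 ± 5388 (SD, n = 3). The log2 fold change was 6.62 ± 0.56 (adjusted p = 0.000581), a 98.6-fold ratio whose lower side rests on dim signals, since only naïve replicate 3 reached the 40th percentile. On the iLarge T arrays the gene ranked between 87.9% and 94.9% of all probe sets. The call held without any of the 6 arrays, with log2 fold changes of 6.23 to 7.18 and adjusted p up to 0.00764.

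S100b (chromosome 10, 76253836 to 76261319) went from near background to a clear signal on its main probe set. The main probe set read 213, 158 and 177 in naïve and 1399, 3407 and 2880 in iLarge T cells. Naïve arrays were tightly grouped, and the lowest iLarge T signal was 6.56 times the highest naïve signal. The change was at least 10.95-fold (log2 fold change 3.72 ± 0.52, adjusted p = 0.00400). It was called without any of the 6 arrays, with adjusted p up to 0.0378. The other probe set gave 389, 33.5 and 48.0 against 1045, 1135 and 1230. Its log2 fold change of 3.73 ± 0.94 was of the same size but missed the threshold (adjusted p = 0.0549), with naïve replicate 1 above the other naïve arrays, and passed without that array (adjusted p = 0.00234).

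Prom1 (chromosome 5, 43993621 to 44102047) was near background on 5 of the 6 arrays. It read 155, 98.1 and 50.2 in naïve and 155, 159 and 530 in iLarge T cells, with replicate 6 the only array above the 40th percentile. The groups touched without overlapping. The log2 fold change was 1.37 ± 0.96 (adjusted p = 0.536), and 0.78 ± 1.08 without replicate 6 (adjusted p = 0.789). In all, 6 of the 9 genes had main probe sets that were higher on every iLarge T array than on every naïve array, against 14.5% of all genes.

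**Figure D2:**
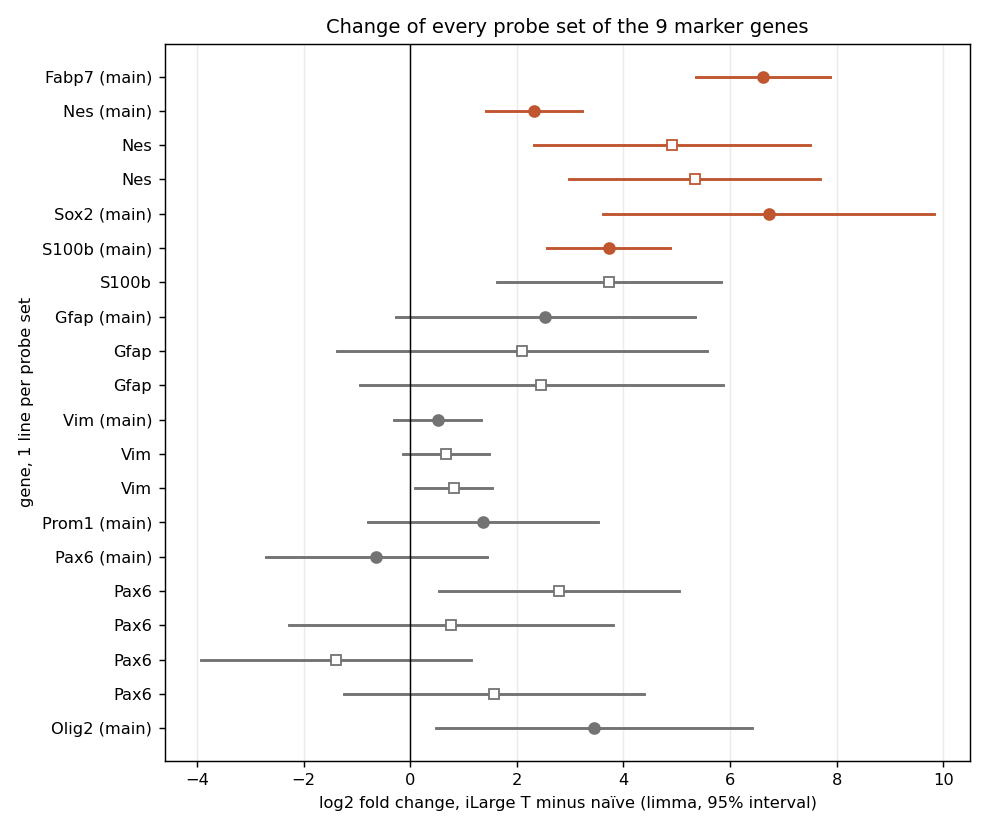
Log2 fold change, iLarge T minus naïve, with its 95% interval from limma for all 20 probe sets of the 9 genes. Filled circles are main probe sets, open squares the others, and orange marks those that rose. All Nes probe sets rose, the S100b probe sets have nearly the same change with unequal intervals, and the Pax6 probe sets lie on both sides of 0.

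The signals of the spike-in controls, foreign transcripts added to each hybridization, grouped the arrays into pairs of naïve 1 with iLarge T 2, naïve 3 with iLarge T 4 and naïve 5 with iLarge T 6. The labels do not give this pairing, and only naïve 3 with iLarge T 4 was set far apart from the other arrays. Fabp7 was higher in iLarge T cells by 7.69, 6.00 and 6.18 on the log2 scale within these pairs, Sox2 by 7.40, 4.62 and 8.15, S100b by 2.71, 4.43 and 4.03, and Nes by 2.42, 2.62 and 1.94. The naïve signals of Sox2 and S100b in these differences were near background, so the sizes for these genes are no measure of the change. Each of the genes that rose was thus higher within every pair, as 25.8% of all genes were. Gfap differed by 0.66, -0.12 and 7.07, so that its mean difference came from the last pair. Vimentin differed by 0.04, 0.87 and 0.64. With the pairs as a block the same 4 genes were called, and 9.87% of all genes. Without the pair of naïve 1 and iLarge T 2, the call of Sox2 was lost (adjusted p = 0.0617).

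**Figure D3:**
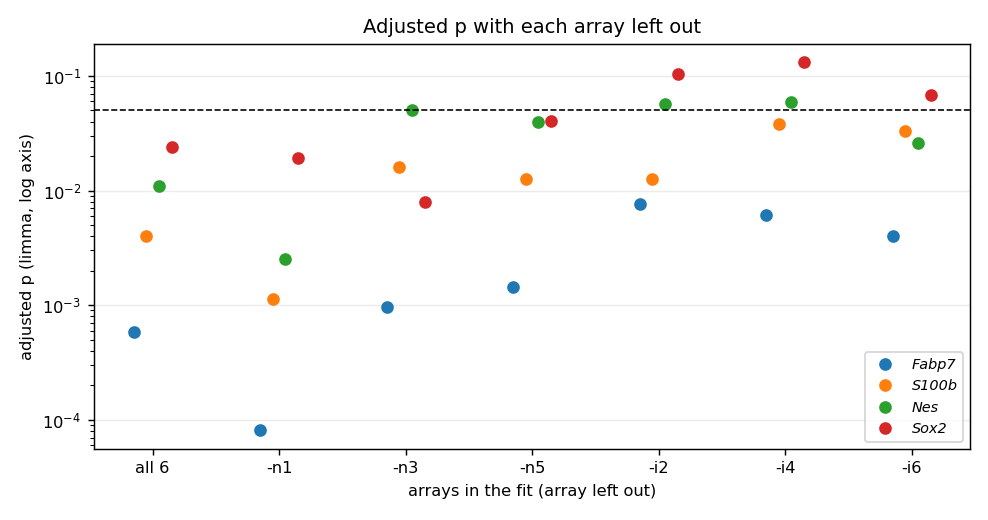
Adjusted p from limma on a log axis for the main probe sets of Fabp7, S100b, Nes and Sox2 with all 6 arrays and with each array left out (n naïve, i iLarge T). The dashed line is 0.05. Fabp7 and S100b stay under it throughout, Nes crosses it in 3 fits and Sox2 in 3.

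The 250 bases before the RefSeq start are shown for the 4 genes that rose, because each of them was called. SOX proteins, Sox2 among them, and the Notch effector RBPJ are known regulators of neural progenitor genes. Regulation of the 4 genes by these factors was not tested. The sequences are printed along the gene's strand, 5′ to 3′, from GRCm38.p6. Capitals mark the letters ACAANG, a SOX core, and TGGGAA, an RBPJ core, on either strand, where they read CNTTGT and TTCCCA on the printed strand when the match is on the other.
Fabp7 chr10:57784673-57784922 (+): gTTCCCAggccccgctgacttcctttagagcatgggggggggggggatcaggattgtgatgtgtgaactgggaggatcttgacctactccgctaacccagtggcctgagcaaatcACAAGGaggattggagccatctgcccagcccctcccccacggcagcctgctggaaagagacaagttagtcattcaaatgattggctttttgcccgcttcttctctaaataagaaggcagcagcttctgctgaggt
S100b chr10:76253586-76253835 (+): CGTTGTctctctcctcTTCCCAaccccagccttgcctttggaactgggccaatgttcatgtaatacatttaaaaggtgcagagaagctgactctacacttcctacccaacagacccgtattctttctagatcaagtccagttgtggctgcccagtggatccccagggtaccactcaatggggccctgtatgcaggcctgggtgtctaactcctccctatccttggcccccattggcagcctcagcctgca
Sox2 chr3:34649745-34649994 (+): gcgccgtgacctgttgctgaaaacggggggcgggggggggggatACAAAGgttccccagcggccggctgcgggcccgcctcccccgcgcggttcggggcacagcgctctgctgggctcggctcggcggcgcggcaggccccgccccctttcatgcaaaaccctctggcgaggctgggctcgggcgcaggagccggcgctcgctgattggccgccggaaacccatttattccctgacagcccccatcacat
Nes chr3:87970843-87971092 (+): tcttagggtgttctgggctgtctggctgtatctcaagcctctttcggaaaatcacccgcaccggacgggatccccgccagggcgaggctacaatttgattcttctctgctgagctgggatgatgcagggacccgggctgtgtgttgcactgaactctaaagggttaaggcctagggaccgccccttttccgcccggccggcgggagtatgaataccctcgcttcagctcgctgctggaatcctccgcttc
Fabp7 held an RBPJ match that begins 249 bases before the start and a SOX match 135 bases before it. S100b held both too, at 234 and 250 bases. Sox2 held a SOX match at 206 bases, and Nes held neither. Among the genes that did not pass, Vim, Olig2, Prom1 and Pax6 held a SOX match in a promoter, and Gfap and Prom1 an RBPJ match. Of 32851 mouse promoters of the same length, 36.3% held the SOX letters and 21.6% the RBPJ letters, so such matches are common. The E-box letters CANNTG, which 66.2% of promoters held, were found in Fabp7, S100b, Prom1 and Pax6. No match overlapped between the SOX and RBPJ letters in the printed sequences.

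Replicate 6 of the iLarge T cells differed from replicates 2 and 4 in which of the 9 genes were high. On the main probe sets, Gfap and Prom1 were highest on it, while Fabp7, Sox2 and Nes were lowest on it among the iLarge T arrays. The other Nes probe sets were highest on it, at 7371 and 952. On the same array, genes of other cell types were bright. C1qa, a complement gene of macrophages and microglia, read 23.9 and 23.6 on replicates 2 and 4 and 8547 on replicate 6. Tyrobp, a myeloid adaptor, read 92.5, 310 and 18261, and Ptprc (CD45) read 206, 196 and 4440. Pecam1, an endothelial adhesion molecule, read 62.5, 580 and 3560. Ttr, the transthyretin of the choroid plexus, read 11.04, 109 and 9958. Summed over the 14 microglial and blood cell markers, the signal was 3772 to 11815 on naïve arrays, 12315 and 17143 on iLarge T replicates 2 and 4, and 152291 on replicate 6. Summed over the 12 endothelial markers, it was 8844 to 13284 on naïve arrays, 10915 and 10853 on replicates 2 and 4, and 68191 on replicate 6. Tek, which fell, was the largest part of the naïve sums, at 5703, 8480 and 9080. The sums thus hide single genes. Cdh5 read at most 210 on naïve arrays, and 2211 and 2787 on replicates 2 and 4. Emcn read at most 122 on naïve arrays, and 2857 and 2917 on these replicates. Ptprc and Pecam1 were near background on all naïve arrays. Which cells gave these signals was not measured here, and their part in the Gfap and Prom1 values was not tested. Fabp7, S100b and Nes rose also without this array, with adjusted p of 0.00400, 0.0328 and 0.0260.

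**Figure D4:**
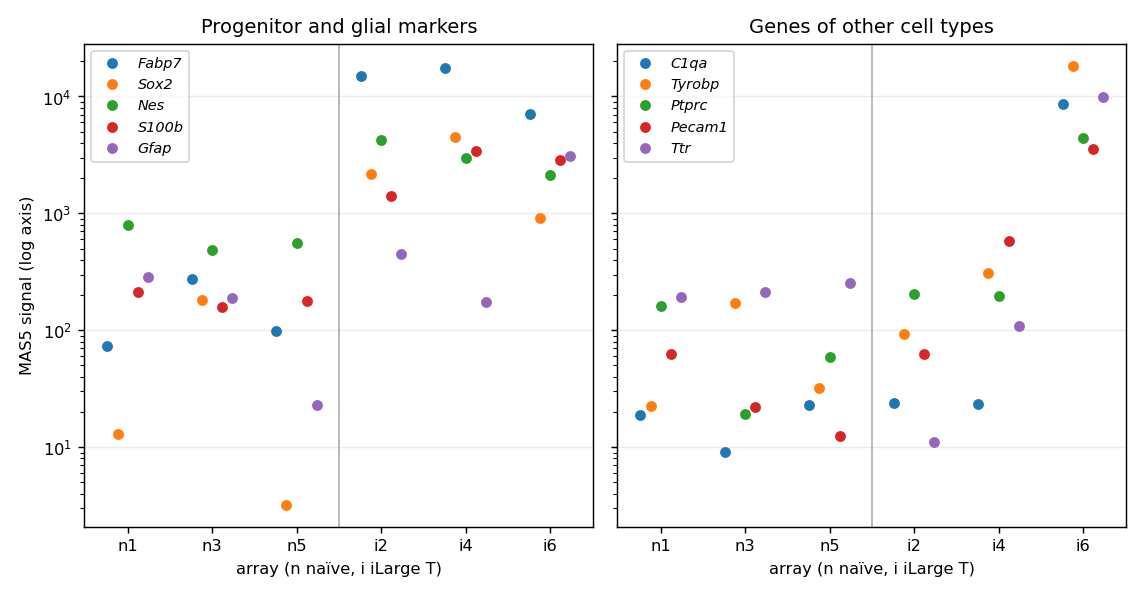
MAS5 signals on a log axis for progenitor and glial markers (left) and for genes of macrophages, endothelium and choroid plexus (right) on each array. On iLarge T replicate 6, Gfap reads 3104 and Tyrobp 18261, while Fabp7 and Sox2 have their lowest iLarge T signals there.

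Of 22 further genes of neural stem cells and radial glia that were measured, 3 rose, 1 fell and 18 did not pass, with a median log2 fold change of 0.75. The share that rose was 13.6%, against the 3.54% of all genes. Tnc, a matrix glycoprotein of radial glia and of wounds, went from 7793, 3357 and 5013 to 102893, 61761 and 74838 (adjusted p = 0.000581). Id4, an inhibitor of helix-loop-helix factors, rose by 3.58 on the log2 scale (adjusted p = 0.00120), and Sox11, a SOX factor of immature neurons, rose at least 27.5-fold (0.00676). Emx2, a cortical homeobox gene that is expressed beyond the brain as well, fell by 2.32 (0.0126). Sox1 read under 29 on all arrays. Sox9 and Notch1 did not pass, with log2 fold changes of 1.22 and 1.56 (adjusted p = 0.468 and 0.280). Ptprz1, Lhx2 and Hopx did not pass either and were lower, at -1.58, -0.93 and -0.45 (adjusted p = 0.0743, 0.581 and 0.685). The groups of Ptprz1 did not overlap.

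Astrocyte markers other than S100b and Gfap gave 1 gene that rose of 17 (5.88%), with a median of 0.90. Over all genes, 3.54% rose and 3.26% fell, the shares to set beside the counts of these lists. The astrocyte gene that rose was Acsbg1, an acyl-CoA synthetase of brain, at least 7.45-fold higher (adjusted p = 0.00829). The defining markers Aqp4, Aldh1l1, Slc1a2 and Gjb6 did not pass, with adjusted p of 0.308, 0.418, 0.813 and 0.797, and Gjb6 was near background on all 6 arrays. Of these only Gjb6 was lower. Aldoc, Slc4a4, Gja1 and Clu were lower, at -2.43, -1.45, -0.95 and -0.76, and did not pass (adjusted p = 0.148, 0.169, 0.173 and 0.488). Apoe and Glul were higher, at 3.04 and 0.94, and did not pass either (0.0763 and 0.275). In the oligodendrocyte lineage, 1 of 13 genes rose, Cspg4 (NG2), which pericytes carry as well, and 1 fell, Myrf, at -3.49 (adjusted p = 0.00133). Sox10, Mbp and Mag did not pass, and Mog was near background throughout. None of 14 Schwann cell and neural crest markers, a lineage that also makes S100b and Sox2, was called in either direction by limma (median 1.21). Erbb3 and Cdh19 had log2 fold changes of -2.18 and 4.64 (adjusted p = 0.125 and 0.123). Of 15 neuronal markers, Stmn2 and Tubb3 rose and none fell (median 1.27). The defining markers Rbfox3, Snap25 and Syt1 were higher and Slc17a7 was lower, but none of them passed (adjusted p = 0.853, 0.184, 0.365 and 0.253). The groups of Slc17a7 did not overlap. Of 10 ependymal and choroid plexus markers, Aqp1 and Cd24a rose and none fell (median 1.12). The defining markers Foxj1 and Ttr did not pass, with log2 fold changes of -1.02 and 0.07 (adjusted p = 0.641 and 0.972).

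Marrow stromal markers were bright in both groups. Of 17, 16 were above the 40th percentile on all naïve arrays and 16 on all iLarge T arrays, against 58.8% and 61.1% of all genes. Pdgfrb, S100a4 and Cd44 rose and Vcam1 fell. For these counts and those below, 3.54% of all genes rose and 3.26% fell. Of 11 pericyte markers, Pdgfrb, Cspg4 and Rgs5 rose (median 2.75). Endothelial markers gave 3 that rose, Cdh5, Emcn and Flt1, and 1 that fell, Tek, of 12 (median 2.69). Among 14 microglial and blood cell markers, Tmem119 and Csf1r rose, with a median of 2.83. Tmem119, also made by osteoblasts, read 5248, 9720 and 8500 on iLarge T arrays and was not confined to replicate 6. None of 10 pluripotency genes was called, where 6.8% of all genes were, so the lack of calls does not set this short list apart. Of the 10, 6 were near background on all arrays, against 11.2% of all genes, and the median was -0.45.

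Without iLarge T replicate 6, when 1.59% of all genes rose, several of these calls were lost. They were Emx2, Stmn2, Tubb3, Cd24a, Csf1r, Flt1, Rgs5 and Cd44, and in the families described next Krt14, Krt19 and S100a8. Cdh5 and Emcn still rose and Tek fell among the endothelial markers, whose median became 1.33. The median became 1.79 for the microglial and blood cell markers, of which Tmem119 rose, 2.10 for the pericyte markers and 1.06 for the ependymal and choroid plexus markers. Tnc, Id4 and Sox11 of the progenitor list, Acsbg1 and Cspg4 were called in this fit as well.

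Relatives of the 9 genes were read by family. Of 18 other intermediate filament genes and linkers, Nefm and Plec rose, and Lmnb1, Krt14 and Krt19 fell. Thus 27.8% were called in either direction, against 6.8% of all genes. Nefm, a neurofilament subunit, went from 27.2, 13.8 and 4.55 to 1252, 1248 and 885, at least 5.10-fold (adjusted p = 0.00693). Of 10 other fatty acid and retinoid binding genes, Fabp3, the heart form, rose by 2.94 (adjusted p = 0.00441). Of 12 other S100 genes, S100a4 and S100a8 rose (16.7%), and of 18 other SOX genes only Sox11 (5.56%). The share of all genes that rose was 3.54%. None of 7 other PAX genes or of 8 other helix-loop-helix genes near Olig2 was called. With 6.8% of all genes called, a lack of calls in lists this small does not set them apart. None of these 15 was above the 40th percentile on all naïve arrays, against 58.8% of all genes.

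The genes with the most similar pattern to those that changed most were sought by the root mean square difference of gene-centred log2 signals over the 6 arrays, among 11874 genes. Closest to Sox2 were 1700012B09Rik (0.753), Robo1 (0.852) and Tfpi2 (1.02). All 3 were near background on every naïve array, as Sox2 was, so this ranking rests in part on differences among background readings. Closest to Fabp7 were Dkk2 (0.738), Robo1 (0.744) and Msx2 (0.802). Closest to S100b were Scara3 (0.249), Irx1 (0.273) and Sphk1 (0.381). Scara3 went from 517, 507 and 405 to 5123, 11328 and 9343, with replicate 2 the lowest of the iLarge T arrays, as for S100b. All of these genes were called higher, which follows from the way they were chosen.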

How the data were processed

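As deposited by the authors, values are MAS5 intensity signals, with a trimmed mean (2% at each end) of 2500 on each of 6 arrays. Precision is limited by how few arrays there are. The 64 controls among 45101 probe sets were left out. Of the other 45037, 34945 had 1 gene symbol, 932 several and 9160 none listed, and no gene was named from several. A RefSeq table held 34741 of the single-symbol ones. A gene was represented by the probe set that was brightest in mean log2 signal. Differences were tested by limma 3.58.1 in R 4.3.3 (lmFit, eBayes with an intensity trend) on log2 signals, with Benjamini-Hochberg adjustment, and were tested on simulated data. Tables and figures were made with Python 3.11.15. Folds against a group under the 40th percentile on all its arrays are lower bounds. The 9 genes, the 17 lists and the tests were chosen with earlier results of these data known. Named were all 9 genes, up to 4 called genes per list, and, for the 3 called genes of largest change, the 3 most alike. Defining markers of the lists were named only in part, and those left unnamed were not called. A few other list genes were named after their values were seen. Listed genes without a probe set of their own, 13 in all, are not analysed here. Of the alternatives, 15 were planned, and the spike-in pairs as a block and the fit without the first pair were added after seeing the data.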

Additional observations from a re-analysis of the deposited data

How the results depend on the processing

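No paired analysis was possible from the labels, because they give the groups no shared replicate numbers, and the block of spike-in pairs was formed from control signals. Of the 9 genes, 2 rose in limma without the intensity trend, and 0 under the unpaired t-test on log2 or linear signals. Leaving out arrays one at a time gave 2 to 4. Without the trend, Nes (2.32, adjusted p = 0.0865) and Sox2 (6.72, 0.128) were lost. The t-test on log2 signals gave Fabp7 6.62 (0.0731), Nes 2.32 (0.110), Sox2 6.72 (0.227) and S100b 3.72 (0.0740), and that on linear signals 6.48 (0.216), 2.35 (0.228), 5.26 (0.420) and 3.81 (0.231). At this size of design, a spread estimated for each probe set alone has few degrees of freedom. The most variable probe set of S100b gave 3.73 (0.0549). Sox2 without the first spike-in pair gave 6.39 (0.0617). Leaving out arrays, Nes ranged from 2.07 to 2.57 and Sox2 from 5.42 to 8.33. Pax6, which never passed, changed sign with a floor at the 40th percentile (0.044), the mean of its probe sets (0.62) or its most variable probe set (0.76), and ranged from -1.33 to 0.077 without an array. Prom1 and Olig2 gave no value under the filter on dim probe sets. With the 30th percentile as near background, 2 of the 9 genes, Prom1 and Olig2, were under it on all naïve arrays.

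Counts over all features depended on the fit. Probe sets higher and lower, 1113 and 1024, became 186 and 109 without the trend, 15 and 13 or 33 and 67 by t-test on log2 or linear signals, and 2206 and 2275 without the first spike-in pair. The floor gave 1677 higher and the spike-in block 1549 lower. Leaving out arrays gave 422 to 2342 higher and 367 to 2140 lower, the most without naïve replicate 1. Genes higher and lower, 644 and 593, became 85 and 48, 7 and 7, 17 and 36, and 1272 and 1278 in the same order, and 971 higher with the floor. Leaving out arrays gave 250 to 1298 and 232 to 1214. The cause was not tested. For the 9 genes, quantile normalization, log2 of the signal plus 16 and the block changed no call.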
